A study of Homo sapiens with 66 samples.

Results

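The genes described here are 8 that decide the fate of pyruvate and lactate, with the peaks of the hypoxia-inducible factors (HIF) at each: LDHA, LDHB, SLC16A3, SLC16A1, PDK1, PDK3, PDHA1 and MPC1. They were chosen by name. Each peak was assigned to the gene whose protein-coding transcription start site (TSS) lay nearest to the peak centre. It was counted when its centre lay within 50 kb of that TSS or in the body of that gene. By this rule 180 of the 131425 peaks in 50 peak lists belonged to the 8 genes, and they merged into 13 sites of 50169 in all (peaks that overlapped by at least 1 bp were merged). Across the whole series 12103 protein-coding genes had a peak.

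The series mapped HIF on chromatin by ChIP-seq (sequencing of DNA pulled down with an antibody) in 3 human cell lines, using an antibody to HIF-1α, HIF-2α or HIF-1β, and each peak list came from 1 library. The severity and duration experiment (24 libraries) used HKC8 renal tubule cells held at 3% oxygen for 6 h, or at 0.5% for 6 h, for 16 h or for 48 h. The knockout experiment (14 libraries) set wild-type HKC8 cells (WT) beside a clone without HIF-1α (HIF-1α KO) and a clone without HIF-2α (HIF-2α KO), each after 16 h at 0.5% oxygen and none with the antibody to its missing isoform. RCC4 renal carcinoma cells, which lack functional VHL and hold HIF-α in normal oxygen, and HepG2 liver cancer cells in 0.5% oxygen for 16 h gave 12 more libraries. Each knockout line was a single clone, so genotype and clone cannot be told apart, and the peak lists do not show whether the targeted gene was lost. Every group had 2 libraries, and nothing in the labels ties them to separate cultures, so the p-values below measure the spread between these libraries only.

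Oxygen controls the stability of the HIF-1α and HIF-2α proteins. Either one pairs with HIF-1β to bind the hypoxia response element (HRE), whose core is ACGTG or GCGTG. Pyruvate can be reduced to lactate and exported, or carried into the mitochondrion and oxidised. Hypoxic cells are known to favour the former. LDHA and LDHB encode the subunits of lactate dehydrogenase, which interconverts pyruvate and lactate. SLC16A3 and SLC16A1 encode the monocarboxylate transporters MCT4 and MCT1. MPC1 is a subunit of the mitochondrial pyruvate carrier, PDHA1 is the catalytic subunit of pyruvate dehydrogenase, and PDK1 and PDK3 are kinases that phosphorylate and inhibit that enzyme.

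Read depth is unknown from peak lists, and the number of peaks per list ran from 237 to 1793 in the severity and duration experiment, from 915 to 8279 in the knockout experiment and from 911 to 6851 in RCC4 and HepG2. Absence of a peak does not show absence of binding, since weak binding can fall below the caller's limit. Peaks are compared by the score percentile, the position of a peak's score within its own list (100 for the best peak, ties shared, 0 where the gene had no peak). It is a relative position among called peaks and not an amount of binding. The same rank gives a higher percentile in a longer list. The HIF-2α list of 48 h replicate 2 was the shortest, with 237 peaks, and held none of the 8 genes. In HepG2 the HIF-1α and HIF-2α libraries went against their replicate numbers. The deviation of replicate 1 from its group mean correlated at −0.442 between the antibodies across 4961 genes, against −0.0176 to 0.182 in the other conditions (a description across genes, which are not independent). HepG2 labels were used as given, and the comparison of HIF-1α with HIF-2α is also given without HepG2.

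The 8 genes divided into those bound almost everywhere and those bound rarely. LDHA had a peak in 49 of 50 libraries, PDK1 in 46 and SLC16A3 in 41. SLC16A1 had one in 17 and PDK3 in 10, while LDHB had one in 3 libraries, PDHA1 in 1 and MPC1 in 1. Of the 12103 genes with any peak, 7 (0.0578%) were called in at least as many libraries as LDHA, 22 (0.182%) as PDK1, 64 (0.529%) as SLC16A3, 1058 (8.74%) as SLC16A1 and 2441 (20.2%) as PDK3. The genes bound in most libraries thus included 1 of the 2 dehydrogenase subunits, 1 of the 2 transporters and 1 of the 2 kinases, and neither the dehydrogenase target of those kinases nor the mitochondrial carrier.

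**Figure D1:**
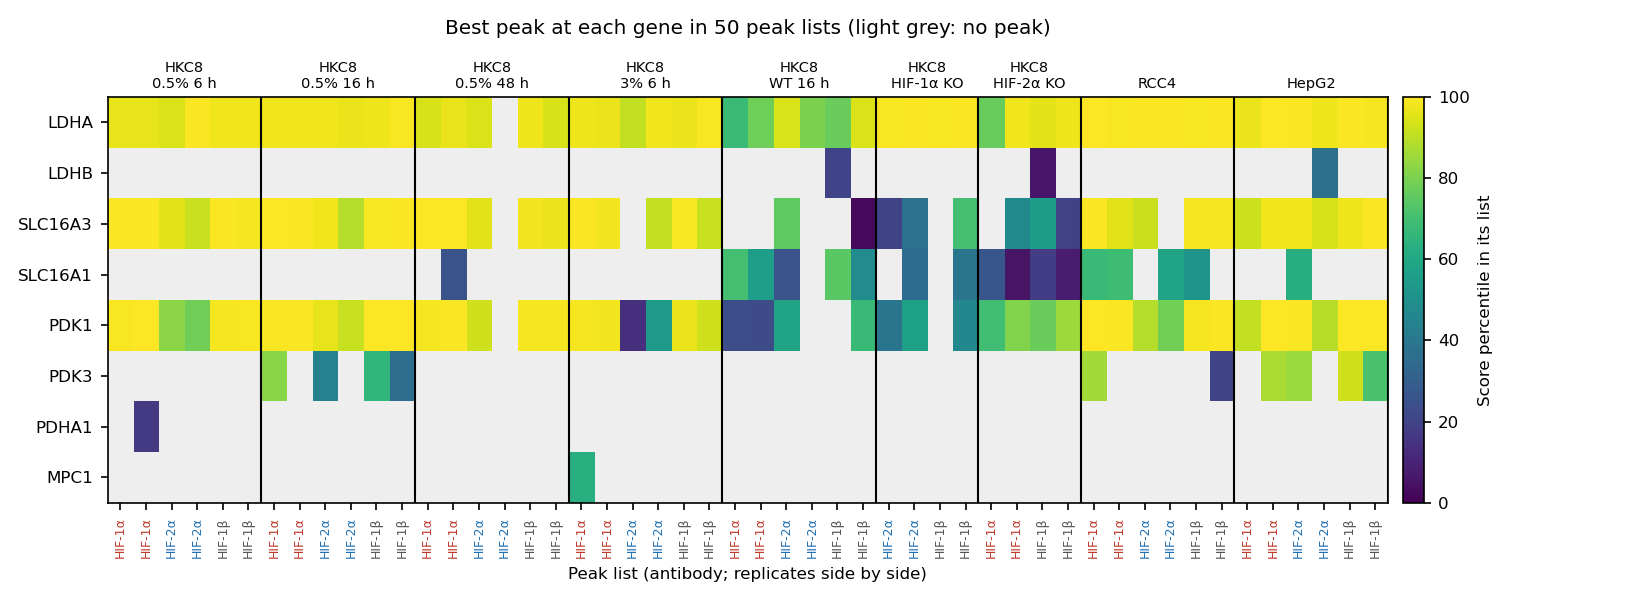
Score percentile of the best peak at each of the 8 genes (rows) in each of 50 peak lists (columns, grouped by condition and antibody, replicates side by side), with light grey where no peak was called. LDHA is called in 49 lists, PDK1 in 46 and SLC16A3 in 41, whereas PDHA1 and MPC1 have 1 coloured cell each. At PDK1 and SLC16A3 the WT columns are lower than the HKC8 0.5% 16 h columns, or grey.

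The site at LDHA (ENSG00000134333.15_12, plus strand) was chr11:18415171-18418239 on GRCh37 (hg19), with its median peak centre at −64 bp from the TSS. The PDK1 site (ENSG00000152256.14_8, plus strand) was chr2:173419296-173421877, with its centre 31 bp downstream of a coding TSS. The SLC16A3 site (ENSG00000141526.18_12, plus strand) was chr17:80185708-80191651, centred at −1111 bp from the nearest coding TSS and within the gene body, downstream of the first annotated promoter and over an exon of a retained-intron transcript. These sites account for every library in which LDHA, PDK1 or SLC16A3 was called.

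Each of these sites held HRE cores at its centre, and the sequences are shown because the arrangement of the cores recurs. They were read from GRCh37, 5′ to 3′ on the strand of the gene, with each ACGTG or GCGTG core on either strand in capitals (CACGT is ACGTG read on the other strand, and CACGTG holds both). The LDHA stretch is chr11:18415907-18416106, the 200 bases before the TSS, with 5 cores. The PDK1 stretch is chr2:173420793-173420822, 30 bases around its pair of cores, kept short because some transcripts begin upstream and count it as 5′ UTR. The SLC16A3 stretch is chr17:80188897-80189097, 100 bp to either side of the median centre, with 2 cores.
LDHA: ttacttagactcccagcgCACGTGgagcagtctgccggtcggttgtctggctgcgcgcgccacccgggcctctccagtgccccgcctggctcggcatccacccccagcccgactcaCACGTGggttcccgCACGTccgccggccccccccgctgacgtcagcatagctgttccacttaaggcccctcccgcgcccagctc
PDK1: ctgcccgcCACGTccctCACGTaccactcg
SLC16A3: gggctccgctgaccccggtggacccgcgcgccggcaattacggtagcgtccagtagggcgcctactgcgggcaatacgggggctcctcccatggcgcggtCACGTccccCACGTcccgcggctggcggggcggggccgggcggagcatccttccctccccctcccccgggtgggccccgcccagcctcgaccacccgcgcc

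SLC16A1 and PDK3 were bound at fewer places. The most often called SLC16A1 site (ENSG00000155380.13_14, minus strand) was chr1:113479439-113480385, in 12 libraries. It lies in an intron, at −1297 bp from an internal coding TSS. The SLC16A1 promoter, chr1:113497668-113499728, was called in 5 libraries and another interval in 1. The PDK3 site (ENSG00000067992.17_12, plus strand) was chrX:24482344-24484024, centred at −43 bp from the TSS and called in 10 libraries. LDHA had a second site, chr11:18404159-18406736, called in 9 libraries and centred at −10517 bp from the TSS. The stretches shown are chr1:113479815-113480015 (minus strand) for the SLC16A1 intron, chrX:24483161-24483360 for PDK3, which ends just before the first annotated exon, and chr11:18405490-18405690 for the distal LDHA site, which held no core.
SLC16A1: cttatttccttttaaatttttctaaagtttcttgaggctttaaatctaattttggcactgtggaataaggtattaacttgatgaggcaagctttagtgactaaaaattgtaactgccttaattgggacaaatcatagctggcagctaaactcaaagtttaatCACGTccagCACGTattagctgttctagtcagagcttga
PDK3: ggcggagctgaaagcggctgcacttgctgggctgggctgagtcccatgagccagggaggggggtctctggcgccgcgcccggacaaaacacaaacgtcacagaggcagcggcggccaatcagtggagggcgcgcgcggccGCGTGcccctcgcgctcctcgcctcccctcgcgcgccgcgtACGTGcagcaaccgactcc
LDHA distal: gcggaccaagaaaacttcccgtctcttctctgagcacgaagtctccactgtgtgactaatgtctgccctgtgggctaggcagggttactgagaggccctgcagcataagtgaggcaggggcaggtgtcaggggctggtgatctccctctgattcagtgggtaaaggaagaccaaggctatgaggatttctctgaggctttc

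At PDK1, SLC16A3 and the SLC16A1 intron, 2 copies of ACGTG stood in the same direction with their first bases 9 bp apart, and in all 3 genes the copies ran against the direction of transcription. This spacing was noticed in these sequences and then counted. Within 100 bp of the site centre it occurred in 51 of 50169 sites (0.102%), in 20 of the 2652 sites called in 10 or more libraries (0.754%) and in 3 of the 71 called in 40 or more (4.23%). These counts hold the sites in which it was noticed: all 3 are among the 51 and the 20, and PDK1 and SLC16A3 are 2 of the last 3. Any core, ACGTG or GCGTG on either strand, occurred in the same window in 34% of all sites, in 69.6% of those called in 10 or more libraries and in 87.3% of those called in 40 or more. Of the 13 sites at the 8 genes, 8 held a core in this window. The distal LDHA site, both LDHB sites and the least often called SLC16A3 and SLC16A1 sites held none. A match is a description of the letters and not a measured binding position.

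The best peak of every library that called these sites held a core. The cores counted were those within 100 bp of the median centre of these same peaks. Wide peaks around that centre hold them largely by construction, and the share over all peaks was not counted. The distance from the peak centre to the nearest core had a median of 23 bp over 49 libraries at LDHA, 44.5 bp over 46 libraries at PDK1, 72 bp over 41 libraries at SLC16A3, 66.5 bp over 12 libraries at the SLC16A1 intron and 39 bp over 10 libraries at PDK3. At PDK1 the median was 46.5 bp for HIF-1α, 71 bp for HIF-2α and 34 bp for HIF-1β. Peak centres lay within 100 bp of a core in 10 of 16, 10 of 14 and 11 of 16 of those libraries. At SLC16A3 the distances reached 991 bp, and the widest peak there was 5814 bp.

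**Figure D2:**
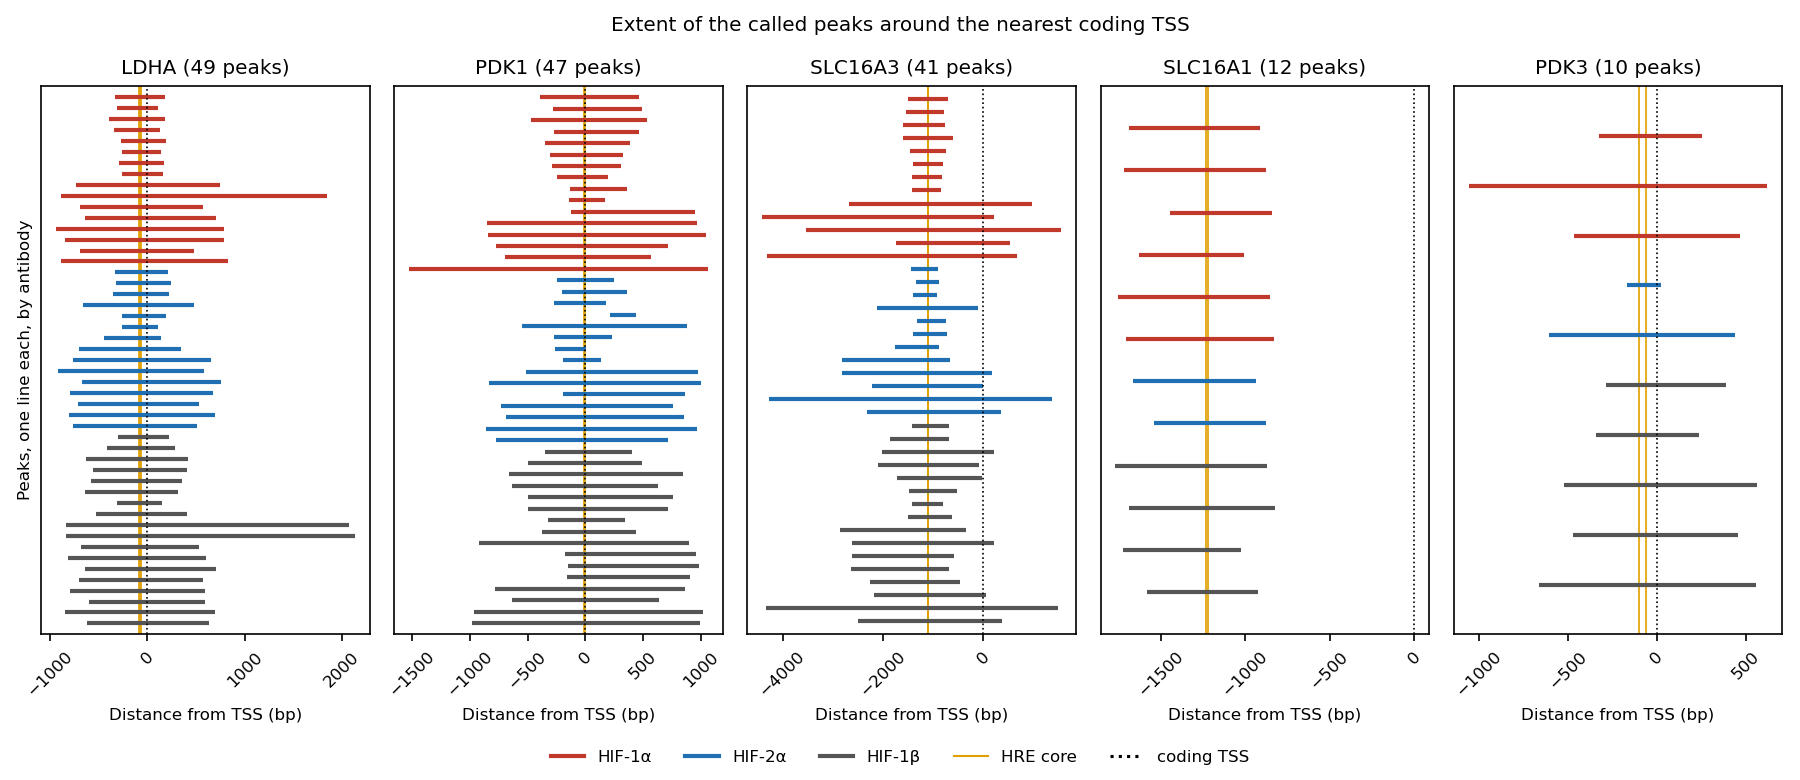
Extent of each called peak (1 horizontal line per peak, coloured by antibody) at LDHA, PDK1, SLC16A3, the SLC16A1 intron and PDK3, in bp from the nearest coding TSS (dotted). HRE cores within 100 bp of the median peak centre are yellow lines. The cores cross all of the 49 LDHA, 41 SLC16A3, 12 SLC16A1 and 10 PDK3 peaks and the best PDK1 peak of each of 46 libraries, and the SLC16A1 peaks are centred at −1297 bp.

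Whether HIF-1α and HIF-2α occupied these genes differently was tested over the 28 libraries of the 7 conditions that had both antibodies. In the severity and duration experiment PDK1 and SLC16A3 were among the best HIF-1α peaks and stood lower in the HIF-2α lists, while LDHA stood as high for both. At PDK1 the HIF-1α percentiles were 99.1 and 99.6 at 0.5% oxygen for 6 h, and the HIF-2α percentiles were 82.5 and 78.3. After 16 h HIF-1α stood at 99.3 and 99.5 and HIF-2α at 96.2 and 91.7. After 48 h HIF-1α stood at 98.8 and 99.4, and HIF-2α at 92.7 with no peak in the other library. The HIF-1α libraries lay above the HIF-2α libraries at each time, as did those of 26.4%, 35.6% and 27.5% of the genes called in at least 2 of the 4 libraries after 6, 16 and 48 h. In 3% oxygen the HIF-1α percentiles were 98.7 and 98.2 and the HIF-2α percentiles 13.6 and 53.7. As ranks, the PDK1 peak was number 17 of 1223 and 13 of 656 in the HIF-1α lists and 483 of 558 and 453 of 977 in the HIF-2α lists, the widest gap between the antibodies in HKC8.

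SLC16A3, the lactate exporter, followed the same order. Its HIF-1α percentiles at 0.5% oxygen were 99.4 and 99.3 after 6 h, 99.6 and 99.4 after 16 h and 99.6 and 99.9 after 48 h, and in 3% oxygen they were 99.3 and 98.3. Its HIF-2α percentiles were 95.9 and 91.5 after 6 h and 97.7 and 88.8 after 16 h. They were 95.6 and no peak after 48 h, and no peak and 90.9 in 3% oxygen. In no severity or duration condition did the antibodies overlap. HIF-1α lay above, as in 26.4%, 35.6% and 27.5% of genes after 6, 16 and 48 h and 22.9% in 3% oxygen. In RCC4 the HIF-1α values were 99.3 and 95.3 and the HIF-2α values 92.1 and no peak, again without overlap (23.4% of 1991 genes). PDK1 in RCC4 gave 99.9 and 99.5 for HIF-1α and 88.8 and 78.5 for HIF-2α. Its HIF-1α score in replicate 1 was tied with other peaks for the best of 5680.

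LDHA did not show that order. Its HIF-1α percentiles in the severity and duration experiment ran from 94.0 to 97.9 (median 96.9, 8 libraries) and its HIF-2α percentiles from 90.9 to 99.3 (median 97.2, 7 of 8 libraries), and the antibodies overlapped in each of the 4 conditions. In RCC4 the HIF-1α values were 99.7 and 99.1 and the HIF-2α values 99.5 and 99.3. In HepG2 the values were 96.9 and 99.6 for HIF-1α and 99.6 and 97.4 for HIF-2α.

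In WT HKC8 of the knockout experiment PDK1 and SLC16A3 did not stand higher for HIF-1α. PDK1 gave 23.6 and 23.1 for HIF-1α and 58.6 and no peak for HIF-2α. SLC16A3 had no HIF-1α peak in either library and a HIF-2α value of 75.1 in 1 of 2. LDHA gave 68.2 and 78.0 for HIF-1α and 94.5 and 80.3 for HIF-2α, with HIF-2α above HIF-1α without overlap, as in 75.8% of the 2181 genes called in at least 2 of those 4 libraries. In HepG2 PDK1 gave 90.7 and 99.6 for HIF-1α and 99.6 and 89.1 for HIF-2α, and the antibodies overlapped there at SLC16A3 as well (92.2 and 97.8 against 97.8 and 94.1).

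**Figure D3:**
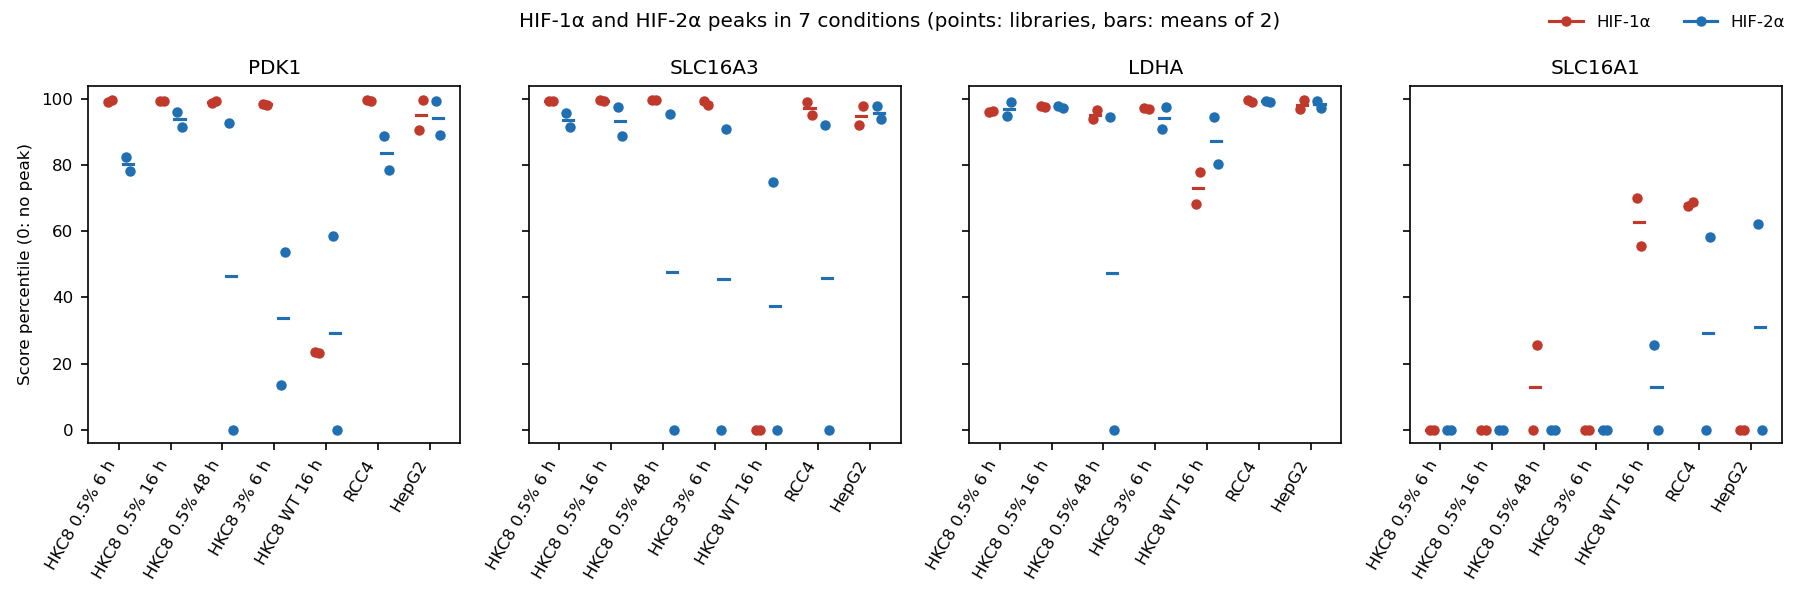
Score percentile (vertical axis, 0 where no peak was called) of HIF-1α and HIF-2α at PDK1, SLC16A3, LDHA and SLC16A1 in 7 conditions, each point a library and each bar the mean of 2. At PDK1 and SLC16A3 the HIF-1α points lie above the HIF-2α points in 5 of 7 conditions, and WT HKC8 and HepG2 are the exceptions.

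Over all 28 libraries the mean difference, HIF-1α minus HIF-2α, was 21.8 percentile points at PDK1 (87.8 against 66.0, exact permutation p = 0.0156, two-sided, labels exchanged within condition), and it did not pass adjustment over the 4961 genes tested (Benjamini-Hochberg adjusted p = 0.292 from that exact permutation test). HIF-1α had the higher mean in 6 of 7 conditions. SLC16A3 differed by 18.6 points (84.3 against 65.7, exact permutation p = 0.125, adjusted p = 0.665), SLC16A1 by 10.1 (20.6 against 10.4, exact permutation p = 0.208, adjusted p = 0.752), PDK3 by 9.05 (18.3 against 9.23, exact permutation p = 0.417, adjusted p = 0.88) and LDHA by 5.13 (93.9 against 88.8, exact permutation p = 0.793, adjusted p = 1). The median over all genes tested was −0.332 points. LDHB, PDHA1 and MPC1 had peaks in fewer than 3 of these libraries and were not tested. None of the 5 members tested passed in either direction, where 0.383% of all genes tested passed with HIF-1α higher and 0.464% with HIF-2α higher. None of the 6 sites of these genes that were tested passed either, beside 0.54% and 1.33% of 5187 sites. Both HIF-1α libraries lay above both HIF-2α libraries in 5 of 7 conditions at PDK1 and at SLC16A3, which 0.645% of the genes tested did in at least 5 conditions.

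The size of these differences depended on how the lists were compared. With each list limited to its 237 best peaks, the length of the shortest, the difference was 54.1 points at PDK1 (exact permutation p = 0.000943, adjusted p = 0.00971) and 36.1 at SLC16A3 (exact permutation p = 0.00159, adjusted p = 0.0133). Both passed there, as did 11.5% of 494 genes with HIF-1α higher. With a gene counted only as called or not called, neither did (exact permutation p = 0.5 at PDK1 and 0.625 at SLC16A3, adjusted p = 1 for each).

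The libraries included also moved the values. Without the shortest list the difference was 15.2 points at PDK1 (exact permutation p = 0.0275, adjusted p = 0.337), 11.8 at SLC16A3 (exact permutation p = 0.251, adjusted p = 0.76) and −1.63 at LDHA, where the direction turned (exact permutation p = 0.422, adjusted p = 0.881). Without replicate 2 of every group it was 11.2 points at PDK1 and 5.04 at SLC16A3 (exact permutation p = 0.547 and 0.594, adjusted p = 1), and without replicate 1 it was 32.5 and 32.1 (exact permutation p = 0.0156 and 0.0313, adjusted p = 0.722). Without HepG2 the differences were 25.3 at PDK1, 21.8 at SLC16A3, 17 at SLC16A1, 10.4 at PDK3 and 6.02 at LDHA (exact permutation p = 0.0159, 0.125, 0.0278, 0.5 and 0.787, adjusted p = 0.174, 0.429, 0.221, 0.737 and 0.942). Without WT HKC8, in which PDK1 and SLC16A3 had the lower mean for HIF-1α, the differences were 26.5 and 27.9 (exact permutation p = 0.000343 and 0.0009, adjusted p = 0.0859 and 0.11). This exclusion was chosen after the values were seen.

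The dimer partner was called at the same genes, but not at every site in every group. HIF-1β had a peak at LDHA in 18 of 18 libraries, at PDK1 and SLC16A3 in 16 each and at PDK3 in 5. At SLC16A1 it was called in 6 libraries, 4 at the intron and 2 at the promoter. In RCC4 the SLC16A1 intron was called in 2 HIF-1α libraries and in 0 HIF-1β libraries. Those HIF-1α lists held 5680 and 2120 peaks, in which the site ranked 2330 and 659. The HIF-1β lists held only 911 and 1305 peaks, so a missing call there does not show a missing partner. A site was counted as canonical HIF-1 binding in a condition where both HIF-1α and both HIF-1β libraries had called it, and as canonical HIF-2 binding likewise. LDHA was canonical HIF-1 in 8 of 8 conditions and canonical HIF-2 in 7 of 8. PDK1 was so in 7 and 5 conditions, SLC16A3 in 6 and 3, and the SLC16A1 intron in 2 and 0. PDK3 was not canonical in any condition by this count. No site of these genes could count as canonical HIF-2 after 48 h, since the shortest list held none of the genes. How many of all sites reach such counts was not determined, so the counts are a description only.

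Oxygen level was compared at 6 h over 12 libraries. PDK1 was lower in 3% than in 0.5% oxygen in every library of each antibody, which was so for 1.65% of the 849 genes tested. The HIF-1α values were 98.7 and 98.2 in 3% oxygen against 99.1 and 99.6 in 0.5%, the HIF-1β values 97.2 and 92.9 against 98.7 and 99.0, and the HIF-2α values are given above. The mean difference was −17.2 points (exact permutation p = 0.00926, two-sided, labels exchanged within antibody, the smallest that 2 libraries per group allow), with an adjusted p = 0.562 over all genes from this exact permutation test. SLC16A3 differed by −17.5 points (exact permutation p = 0.0463, adjusted p = 0.562), its HIF-2α peak being absent in 1 library. LDHA differed by −0.595 points (exact permutation p = 0.704, adjusted p = 0.935). The median over all genes tested was −7.90 points, so PDK1 and SLC16A3 lay below that median and LDHA above it. By rank rather than percentile the HIF-1α libraries overlapped at PDK1 (17 and 13 in 3% oxygen, 14 and 6 in 0.5%), since the lists differed in length. With lists of equal length the differences were −13.2 points at PDK1 and −15.8 at SLC16A3 (exact permutation p = 0.0185 and 0.25, adjusted p = 0.44 and 0.661). No gene passed adjustment in this comparison by the exact permutation test, and 42 had an unadjusted p under 0.05.

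Duration was compared at 0.5% oxygen. Between 6 and 16 h, PDK1 had a mean difference of 4.81 points (97.7 against 92.9, exact permutation p = 0.0278, adjusted p = 0.582), LDHA of 0.801 (exact permutation p = 0.324, adjusted p = 0.694) and SLC16A3 of −0.0395 (exact permutation p = 0.944, adjusted p = 1). The median over the 1097 genes tested was 4.21 points, close to the value at PDK1. PDK3 was listed only at 16 h in this experiment, in 4 of 6 libraries, with HIF-1α at 82.3 in replicate 1, HIF-2α at 44.1 in replicate 1 and HIF-1β at 65.7 and 35.9 (mean difference 38.0, exact permutation p = 0.0833, adjusted p = 0.582). Between 6 and 48 h, which shared the 6 h libraries with the former, LDHA differed by −17.6 points, SLC16A3 by −15.6 and PDK1 by −11.5, and each of these means held the shortest list, where none of the 3 was called (exact permutation p = 0.0833, 0.435 and 0.75, adjusted p = 0.733, 0.917 and 1). The median over the 818 genes tested was −9.11 points. No gene passed adjustment at either time by the exact permutation test, and 37 and 25 genes had an unadjusted p under 0.05.

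The condition of 0.5% oxygen for 16 h in HKC8 was present in both HKC8 experiments, and the 2 differed at these genes. This comparison was added after the values were seen. PDK1 was the peak of rank 10 of 1313 and 6 of 951 in the HIF-1α lists of the severity and duration experiment. In the WT lists it ranked 1463 of 1913 and 1181 of 1535. SLC16A3 ranked 6 of 1313 and 7 of 951 in the former and had no peak in the latter, although those lists were longer. For HIF-1β, PDK1 had percentiles of 99.7 and 99.6 in the severity and duration experiment and no peak and 67.6 in WT, and SLC16A3 had 99.1 and 99.2 against no peak and 2.55. LDHA was lower in WT as well, with HIF-1α at 68.2 and 78.0 against 97.9 and 97.7. In both experiments the label gives the same oxygen level and time.

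LDHA, SLC16A3 and PDK1 were 3 of only 11 genes that were lower in WT in every library of each antibody (0.372% of 2958 tested), whereas 473 genes (16%) were higher in every library. The mean difference, WT minus the severity and duration experiment, was −68.9 points at PDK1, −84.4 at SLC16A3 and −15.7 at LDHA (exact permutation p = 0.00926 for each, the smallest possible, adjusted p = 0.0566), while the median over all genes tested was 28.8 points. With lists of equal length the differences were −97.2, −96.8 and −59.4 points (exact permutation p = 0.00926, adjusted p = 0.0553). The other 8 genes were AK4, ALDOA, ITGB1, KCTD11, OSMR, P4HA1, SIAH2 and SLC2A3, named after their values were seen. PKM, the pyruvate kinase gene that produces pyruvate, went the other way, with a mean of 99.0 in WT against 92.7 and every WT library higher. SLC16A1 was called in 5 of 6 WT libraries and in none of the 6 others (mean 45.7 against 0, exact permutation p = 0.0278, adjusted p = 0.0952). By p it ranked only 520 among the 2958 genes tested, and the share of genes with such calls was not counted. No gene passed adjustment by the exact permutation test, and 888 had an unadjusted p under 0.05. Experiment, list length and peak width differ together here and cannot be told apart.

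The knockout lines were used to ask how each isoform bound without the other. With 2 libraries against 2 an exact permutation test cannot go below p = 0.33, so values alone are given. At PDK1, HIF-1α gave 69.3 and 80.9 in HIF-2α KO cells against 23.6 and 23.1 in WT, higher without overlap, as were 10.1% of the 685 genes with peaks in at least 3 of those 4 libraries. HIF-1β at PDK1 gave 77.0 and 85.2 in HIF-2α KO cells, no peak and 67.6 in WT, and no peak and 46.8 in HIF-1α KO cells. Its percentiles in HIF-2α KO cells lay above WT without overlap (so did 7.1% of 1689 genes) and above HIF-1α KO cells (16.9% of 1183 genes). HIF-2α at PDK1 gave 38.9 and 57.1 in HIF-1α KO cells and 58.6 and no peak in WT, which overlapped. PDK1 was thus called in all 4 HIF-2α KO libraries and in 3 of 4 HIF-1α KO libraries.

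LDHA was called in every library of both knockout lines. In HIF-1α KO cells its HIF-2α percentiles were 99.2 and 99.5, against 94.5 and 80.3 in WT. These were higher without overlap, as in 29.2% of 2146 genes. HIF-1β gave 98.8 and 99.6 in HIF-1α KO cells and 95.9 and 97.5 in HIF-2α KO cells, against 77.3 and 94.6 in WT. Both knockout lines lay above WT (10.2% of 2125 genes in the former, 7.1% in the latter), and HIF-2α KO lay below HIF-1α KO without overlap (52.2% of 1183 genes). HIF-1α in HIF-2α KO cells gave 76.9 and 97.9, overlapping WT.

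SLC16A3 was called in 8 of the 14 libraries of this experiment, at percentiles from 2.55 to 75.1. HIF-1α had no peak in WT and gave no peak and 47.8 in HIF-2α KO cells, and HIF-2α gave 20.4 and 37.5 in HIF-1α KO cells and 75.1 and no peak in WT. HIF-1β gave 54.7 and 19.3 in HIF-2α KO cells, above the WT values of no peak and 2.55 without overlap (7.1% of 1689 genes), and no peak and 70.0 in HIF-1α KO cells.

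**Figure D4:**
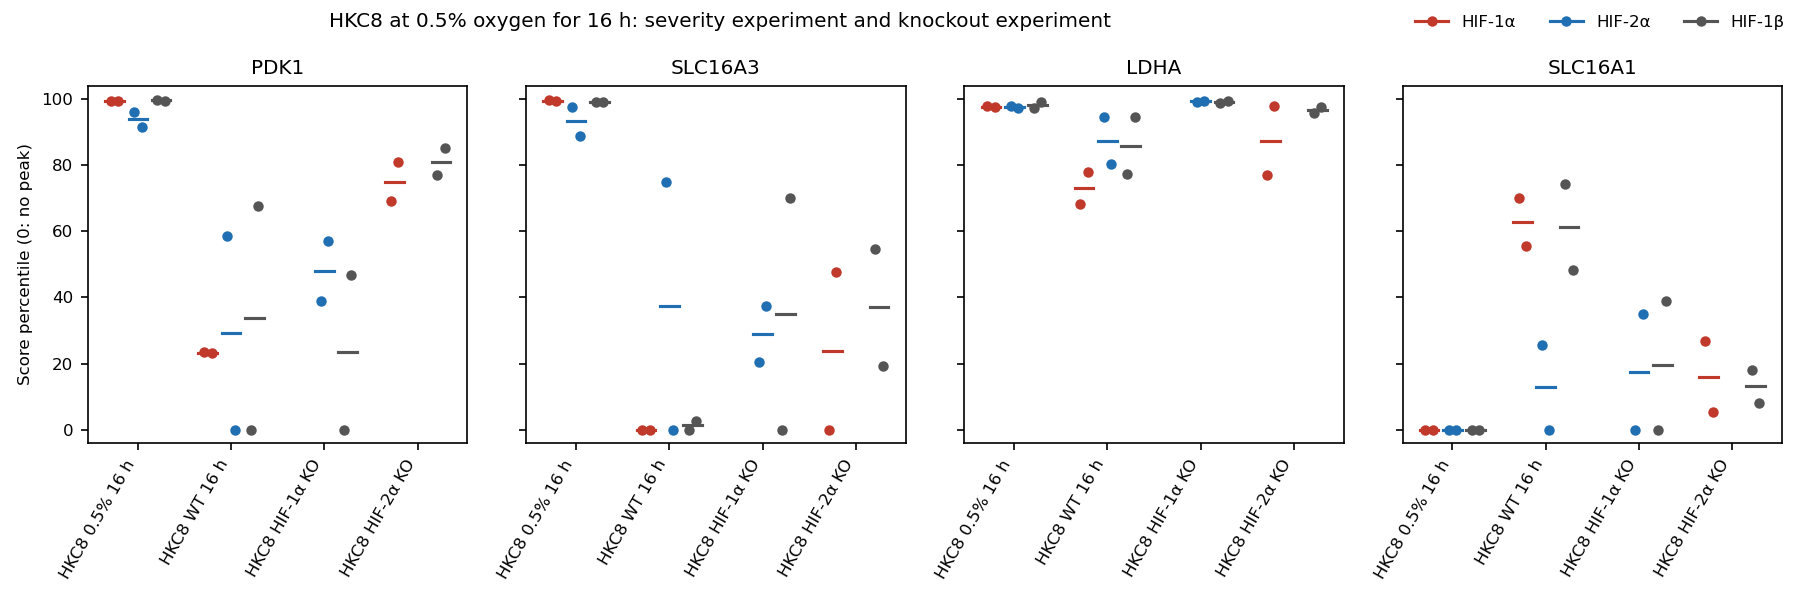
Score percentile (vertical axis, 0 where no peak was called) at PDK1, SLC16A3, LDHA and SLC16A1 in HKC8 cells at 0.5% oxygen for 16 h, in the severity and duration experiment and in WT, HIF-1α KO and HIF-2α KO cells, each point a library and each bar the mean of 2. PDK1 and SLC16A3 lie at 88.8 or above in the severity and duration experiment and at 85.2 or below in the other groups, while LDHA in HIF-1α KO cells lies at 98.8 or above.

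The SLC16A1 intron and the distal LDHA site were opposed between the knockout lines. The SLC16A1 intron was called in 4 of 4 HIF-2α KO libraries, in 5 of 6 WT libraries and in 0 of 4 HIF-1α KO libraries. In WT its HIF-1α percentiles were 70.0 and 55.7 and its HIF-1β percentiles 74.3 and 48.2, and 1 of 2 HIF-2α libraries called it, at 25.6, so HIF-1α lay above HIF-2α without overlap, as in 10.6% of the 2181 genes called in at least 2 of those 4 libraries. In HIF-2α KO cells HIF-1α gave 26.8 and 5.25 and HIF-1β 18 and 8.20, both lower than WT without overlap (36.6% of 685 and 64.2% of 1689 genes), with scores of 52.1 to 66.4 where the lowest score in any list was 50. In HIF-1α KO cells the SLC16A1 promoter was called instead, in replicate 2 of HIF-1β (39.0) and of HIF-2α (35), and the HIF-1β value of the gene also lay below WT (42.1% of 2125 genes). The intronic site was canonical HIF-1 in WT and in HIF-2α KO cells.

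The distal LDHA site was called in 4 of 4 HIF-1α KO libraries, with HIF-2α at 75.2 and 83.0 and HIF-1β at 80.6 and 82.9, in 3 of 6 WT libraries and in 0 of 4 HIF-2α KO libraries. In WT the calls were HIF-1β in both libraries (65.7 and 64.0) and HIF-2α in 1 (41.9), with none for HIF-1α. In RCC4, replicate 1 of HIF-1α (73.2) and of HIF-2α (88.6) called it. Of the 4566 sites called in at least 3 of the 8 libraries of the knockout lines, 26.9% had the pattern of the distal LDHA site and 3.04% that of the SLC16A1 intron. The HIF-1α KO lists held 3387 to 6540 peaks and the HIF-2α KO lists 915 to 2550. Knockout line and list length therefore cannot be told apart here. The LDHA promoter site was called in both knockout lines. The distal site held no core in the central window. Of the knockout lines, only HIF-1α KO cells called it, in every library, as at 26.9% of those sites.

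Cell lines were compared with WT HKC8 over 12 libraries each, and line and experiment cannot be told apart. LDHA and PDK1 were higher in RCC4 in every library of each antibody, as were 1.23% of 3419 genes. The mean difference was 65.3 points at PDK1 (94.1 against 28.8) and 17.2 at LDHA (99.3 against 82.2), with an exact permutation p = 0.00926 and an adjusted p = 0.113 for each. SLC16A3 differed by 67.7 points (exact permutation p = 0.0278, adjusted p = 0.166). In HepG2, LDHA, PDK1 and SLC16A3 were higher in every library of each antibody, as were 6.69% of 4722 genes, by 16.5, 67.6 and 83.5 points (exact permutation p = 0.00926, adjusted p = 0.0706 for each). With lists limited to the length of the shortest in each comparison, LDHA and PDK1 passed in RCC4 (adjusted p = 0.0479 from the same exact permutation test), as did 5.11% of 978 genes in that direction, and all 3 passed in HepG2 (adjusted p = 0.0357), as did 10.8% of 1877 genes. These directions hold against WT. The mean in the severity and duration experiment at 16 h was 97.7 at PDK1, 97.3 at SLC16A3 and 97.9 at LDHA, beside 94.1, 80.6 and 99.3 in RCC4 and 96.5, 96.5 and 98.6 in HepG2, so against those HKC8 libraries PDK1 and SLC16A3 were not higher in either line. The medians over all genes tested were −16.3 points in RCC4 and 7.56 in HepG2. Over the RCC4 and HepG2 libraries that called them, the median percentile of LDHA, PDK1 and SLC16A3 was at least 88.9 for each antibody.

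SLC16A1 was called in 4 of 6 RCC4 libraries and in 1 of 6 HepG2 libraries (RCC4 against WT −4.56 points, exact permutation p = 0.75, adjusted p = 0.851, and HepG2 against WT −35.3 points, exact permutation p = 0.0833, adjusted p = 0.16). Both comparisons share the WT libraries. The intronic site was listed for HIF-1α in both RCC4 libraries (59.0 and 69.0) and in no HepG2 library. PDK3 was called in 4 of 6 HepG2 libraries, with HIF-1β at 92.8 and 71.2, HIF-1α at 87.3 in replicate 2 and HIF-2α at 85.1 in replicate 1, and in none of the 14 libraries of the knockout experiment (HepG2 against WT, exact permutation p = 0.0833, adjusted p = 0.16). In RCC4 it was called by HIF-1α replicate 1 (86.3) and HIF-1β replicate 3 (20.7). No gene passed adjustment in either comparison by the exact permutation test, and 610 and 1231 genes had an unadjusted p under 0.05.

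LDHB, PDHA1 and MPC1 had 5 peaks in all. LDHB, the dehydrogenase subunit of oxidative tissues, was called near its TSS (chr12:21809859-21811231) by HIF-1β in replicate 1 of WT (20.3) and of HIF-2α KO (6), and 46157 bp from another TSS by HIF-2α in HepG2 replicate 2 (37). PDHA1 had 1 peak of 163 bp, 28828 bp downstream of its TSS and inside a neighbouring gene, for HIF-1α at 6 h (17.1). MPC1 had 1 peak of 166 bp, at −48333 bp, for HIF-1α in 3% oxygen (63.0). No peak of these genes was called in both replicates of any group.

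Other genes of lactate and pyruvate metabolism were taken as a list of 26. Of these, 21 had a peak in at least 1 library and 5 in 10 or more. Of all 20163 protein-coding genes 12103 had a peak, and 2441 of those (20.2%) had one in 10 or more libraries. The counts in the list are therefore a description only. PKM was called in 47 libraries, PC (pyruvate carboxylase) in 25, GPT2 (mitochondrial alanine transaminase) in 17, BSG (basigin, the chaperone of MCT1 and MCT4) in 11 and PDP1 (a phosphatase that reverses the action of the PDK kinases) in 11. The kinase genes PDK2 and PDK4 were called in 0 and 1 libraries, and MPC2, the partner of MPC1, in 1. None of the 8 genes of the list tested for HIF-1α against HIF-2α passed adjustment by the exact permutation test, and 0 had an unadjusted p under 0.05. BSG was called in 6 of 6 HepG2 libraries (mean 77.7), in 4 of 6 WT HKC8 libraries (42.9) and in none of the severity and duration libraries at 16 h. HepG2 against WT gave an exact permutation p = 0.0463 and an adjusted p = 0.147 at BSG. GPT2 (86.4 against 30.3, exact permutation p = 0.0185, adjusted p = 0.113) and PDPR (49.5 against 0, exact permutation p = 0.0833, adjusted p = 0.16) were higher in HepG2 too. PKM, PDHX, PDP1, PC and ME2 were lower.

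For each member called in 10 or more libraries, the genes whose calls fell in the most similar set of libraries are given by the Jaccard index over 50 libraries, as a description. LDHA was called in the same 49 libraries as PPP1R3C and ALDOA (index 1). PDK1 shared 46 of 49 libraries with PPP1R3C and with ENO1 (0.939 each), and SLC16A3 shared 41 of 45 with AK4 (0.911) and 41 of 48 with GAPDH (0.854). SLC16A1 shared 14 of 20 with UGT1A6 (0.7) and 16 of 23 with PRPS1 (0.696). PDK3 shared 9 of 11 with TDP1 (0.818) and 8 of 10 with RUNDC1 (0.8). Genes called in nearly all libraries must share most of them.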

How the data were processed

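Per the labels and the study's methods, reads were trimmed with Trim Galore 0.3.3, aligned to GRCh37 (hg19) with BWA 0.7.5a-r405 and filtered with SAMtools 0.1.19, Picard 1.106 and bedtools 2.17.0. The labels name MACS as the caller of the peaks. The study's methods name MACS and a second caller, T-PIC, and filter the peaks detected by both on their read count. The deposited score of each peak (lowest 50) gives order within a list and no depth. Percentiles used each whole list, and 294 peaks outside the main chromosomes were assigned to no gene. Peaks were assigned with 89204 protein-coding transcripts of GENCODE 44 on GRCh37. Groups were compared by exact permutation tests of percentiles within strata, with Benjamini-Hochberg adjustment over all genes called in at least 3 libraries, using Python 3.11.15, numpy 2.4.6, scipy 1.17.1, pandas 2.3.3 and samtools 1.23.1. Genes named were the 8 members, a list of 26 pathway genes and the 2 genes most alike to each member, and others are marked as named after their values were seen. The members and lists were chosen with earlier results of these data known. Inputs were not analysed here.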

Additional observations from a re-analysis of the deposited data

How the results depend on the processing

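The number of genes passing the test of HIF-1α against HIF-2α (42) was 0 with calls alone in place of percentiles, 113 of 494 tested with lists of equal length, 114 of 3261 without HepG2 and, chosen after seeing the data, 0 without the knockout experiment and 87 without the shortest list. Sites passing (97) numbered 0, 176, 223 and 19 under the same first 4 settings. Leaving out either replicate number gave 0 to 0 for both, where the smallest p such a design allows is 0.0156. RCC4 and HepG2 against WT (0 genes each) gave 189 of 978 and 487 of 1877 with equal lists. The replicate numbers did not pair the samples, and the fit with the replicate block gave 0 genes and 0 sites. LDHA changed direction without replicate 2 (−3.09 points, range −3.09 to 13.3) and without the shortest list (−1.63). With equal lists LDHA in 3% oxygen was 2.12, SLC16A3 at 16 h 0.824, PDK1 at 48 h 10.1 and SLC16A1 in RCC4 2.84. The cause was not tested. SLC16A1 and PDK3 could not be tested for isoform with equal lists.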
